A study of Mus musculus with 6 samples.

Results

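The genes described are the integrin-binding matrix glycoproteins Fn1, Postn, Tgfbi, Vtn, Emilin1, Edil3, Npnt and Mfap4, which encode fibronectin, the fasciclin-domain proteins periostin and TGFBI, vitronectin and related adhesive proteins. They were chosen by symbol, and all 8 were found among the 28293 genes in the count files. Poly(A)-selected RNA was sequenced from mouse dermal fibroblasts labelled as a cell line. The wild-type group (genotype WT) and the Lap2alpha knockout group (genotype Lap2alpha KO, here KO) had 3 libraries each and shared the same medium, DMEM with fetal calf serum and antibiotics, with no other treatment named. The labels state neither how the knockout was made nor whether it is 1 clone, nor whether replicates were separate cultures, so the tests measure the spread between these libraries, which may be technical, and line or clone differences cannot be told apart from the knockout.

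Cells hold on to the extracellular matrix through integrins, paired alpha and beta receptor chains that span the membrane and connect matrix proteins to the actin cytoskeleton. Many integrin ligands present the short peptide Arg-Gly-Asp (RGD), first recognised in fibronectin, which fibroblasts assemble into fibrils through the receptor formed by Itga5 and Itgb1. In skin, fibroblasts secrete fibronectin, periostin, TGFBI and Emilin1 into the dermal matrix, whereas vitronectin is made mainly by the liver and circulates in plasma. Nephronectin (Npnt) is a ligand of the Itga8 integrin, Edil3 is a secreted RGD protein of endothelial and neural tissue, and Mfap4 and Emilin1 are associated with elastic fibres.

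The coding stretches that hold the integrin-recognition triplet are shown first, because this short motif is the feature that joins most of these genes. In the longest coding sequence of each gene in the GENCODE M21 transcripts, 7 of the 8 genes had at least 1 in-frame run of codons for Arg-Gly-Asp, compared with 7.28% of 21429 coding genes. Each line gives 27 bases, 5′ to 3′, with the codons for Arg-Gly-Asp in capitals.
Fn1: gtcactggcCGTGGGGACagtccagca
Tgfbi: ccacaagaaCGAGGAGATgagctggca
Vtn: caagtaacgCGGGGGGACgtgttcact
Emilin1: ctgcaagccCGTGGGGATgagggttgt
Edil3: gaagcctatCGAGGAGACacattcata
Npnt: cagaaacccAGAGGAGATgtgttcatt
Mfap4: tctgggatcCGGGGAGATgctctggag
The Fn1 run begins at codon 1614 of 2477, and a second run lies at codon 2181. In Mfap4 the run begins at codon 28 of 281 and in Vtn at codon 64 of 478, near the start of the coding sequence, whereas in Tgfbi it begins at codon 642 of 683, close to the end. Postn, the other fasciclin-domain gene, had no such run in its 838 codons. A match is a description of the coding sequence and does not show that a site is used. Emilin1, for example, is known to bind integrins through its C-terminal domain, while its run begins at codon 578 of 1017.

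Library totals ranged from 22159339 to 26553616 counts in WT and from 25768678 to 27281473 in KO. Mitochondrially encoded genes took 1.99% to 2.45% of counts in WT and 3.76% to 4.46% in KO. Tmpo, which encodes LAP2alpha, a nucleoplasmic partner of A-type lamins, and the other LAP2 isoforms, had 254, 249 and 252 CPM (counts scaled to a library total of 1000000) in WT and 135, 122 and 131 CPM in KO. It fell by 1.04 on the log2 scale, and because its count sums all isoforms it does not measure LAP2alpha alone. All 11 fibroblast markers examined were detected in both groups, with a summed level of 6046 to 6423 CPM in WT and 22997 to 24418 CPM in KO. Of these, 10 were called higher, among them Lum, which was near the floor in WT (mean 0.0681 CPM, and 2.28 CPM in KO). Thy1, a surface marker of fibroblasts, was called lower (379 CPM in WT and 238 CPM in KO). Markers of 9 other cell types stayed at or below 13.5 CPM summed per type, and defining markers such as Krt5, Cd3e, Sox10, Myod1 and Alb had no counts listed. Summed Schwann cell markers (2.76 to 3.07 CPM in WT, 10.2 to 13.5 CPM in KO) and smooth muscle and pericyte markers (0.722 to 1.09 and 4.85 to 5.47 CPM) were higher in KO. Summed keratinocyte (6.82 to 8.53 CPM in WT, 4.90 to 6.49 CPM in KO), endothelial (1.30 to 1.47 and 0.233 to 0.880 CPM) and melanocyte markers (1.17 to 2.98 and 0.367 to 0.905 CPM) were lower in KO. The part of these shifts in the results was not tested, and fewer cells of a type cannot be told apart from less RNA per cell.

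Tgfbi, Postn and Emilin1 rose strongly in KO, Npnt rose from a low level, and Fn1, the most abundant of the genes, was not called different. A gene is called when its adjusted p in edgeR's quasi-likelihood test, with Benjamini-Hochberg adjustment over all tested genes, was under 0.05. Every fold change is the KO level relative to the WT level. Of the 8 genes, 5 passed the filter on low counts, each reaching the filter's CPM level in all 6 libraries, and 4 of these were higher, 0 were lower and Fn1 was not called. The median log2 fold change of the 5 was 1.71. Over all 15081 tested genes 75.1% were called, made up of 37.7% higher and 37.5% lower in KO, and the median log2 fold change was 0.01, so a call by itself was common in this comparison. All KO libraries were above all WT libraries for the 4 called genes, a pattern that 42.2% of tested genes showed, and 76.8% showed no overlap in either direction. Vtn, Mfap4 and Edil3 did not pass the filter.

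**Figure D1:**
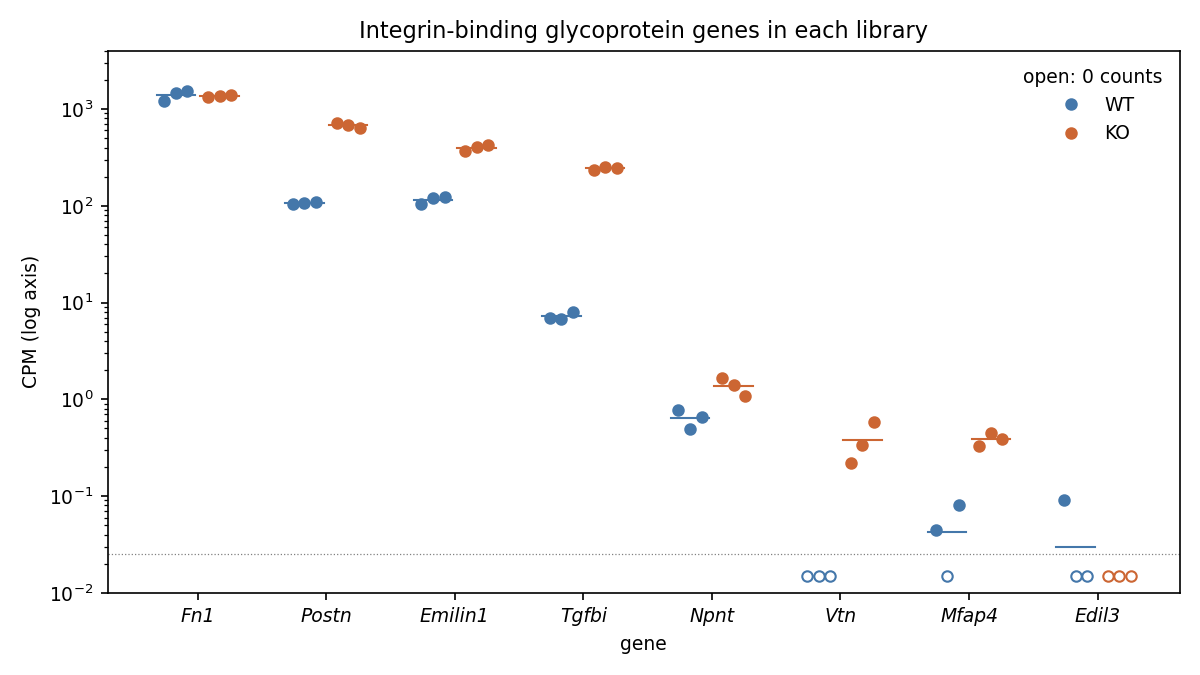
Level of each gene in each library, in CPM on a log axis, with WT in blue, KO in orange, short lines for group means and open symbols below the dotted line for libraries with 0 counts. Fn1 overlaps between groups, Postn, Emilin1, Tgfbi and Npnt are higher in every KO library than in any WT library, and the other genes lie below 1 CPM.

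Tgfbi encodes TGFBI, also called keratoepithelin, a secreted protein that binds collagens and integrins and is induced by TGF-beta in many cells. Its level was 6.90, 6.70 and 7.95 CPM in the WT libraries and 237, 251 and 247 CPM in the KO libraries. The groups were far apart and the libraries within each were close. The log2 fold change was 5.01 (SE 0.0737, edgeR adjusted p = 3.9e-11), a 32.3-fold increase, which ranked 103 of the 15081 tested genes by size of increase. Called increases of at least 32-fold made up 0.69% of tested genes. The locus of Tgfbi (ENSMUSG00000035493) is on chromosome 13 of GRCm38, plus strand, from 56609523 to 56639562, and no exon of another annotated gene overlaps its exons.

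Postn encodes periostin, a matrix protein of collagen-rich and wounded tissue built of the same fasciclin domains as TGFBI. It stood at 105, 106 and 109 CPM in WT and at 722, 685 and 633 CPM in KO. All KO libraries were above all WT libraries, and the KO values were the more spread, with a coefficient of variation of 6.55% against 2.15% in WT. The log2 fold change was 2.59 (SE 0.0590, edgeR adjusted p = 2.9e-10), a 6.03-fold increase. By read level Postn moved from rank 2051 in WT to rank 174 in KO among all genes in the files. Its locus (ENSMUSG00000027750) is on chromosome 3 at 54361109 to 54391037, plus strand.

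Emilin1 encodes a glycoprotein found where elastin meets microfibrils, and it also restrains TGF-beta activation. WT libraries had 104, 120.3 and 122 CPM, and KO libraries had 368, 405 and 423 CPM. The lowest KO value was well above the highest WT value. The log2 fold change was 1.71 (SE 0.0755, edgeR adjusted p = 1.5e-08), a 3.27-fold increase. Emilin1 (ENSMUSG00000029163) is on chromosome 5 at 30913402 to 30921277, plus strand. At least 4-fold increases were called for 6.54% of tested genes and at least 2-fold increases for 16.7%, so Tgfbi and Postn fall in the smaller of these classes and Emilin1 in the larger.

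**Figure D2:**
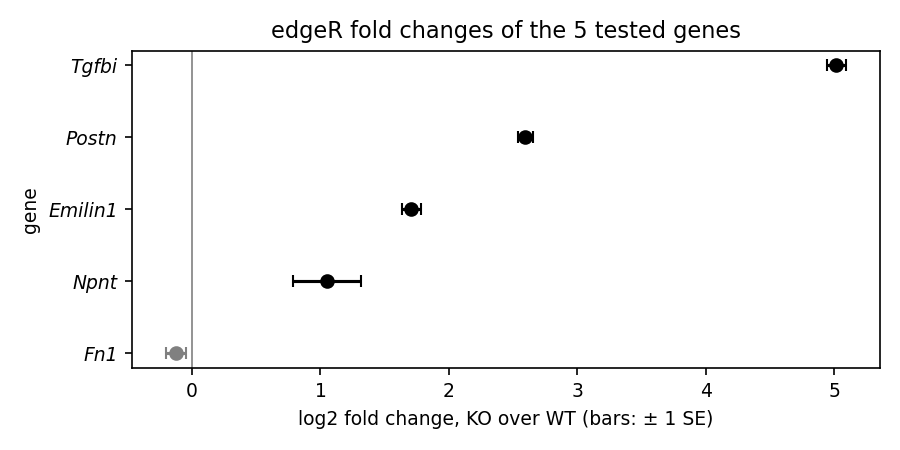
Log2 fold change (KO over WT) of the 5 tested genes from edgeR, with bars of 1 SE; black points are called and the grey point is not. The points run from 5.01 for Tgfbi to −0.12 for Fn1, and the bar of Npnt, the gene with the fewest reads, is the widest.

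Fn1 encodes fibronectin, the ligand around which fibroblasts organise much of their early matrix. Its WT libraries had 1223, 1457 and 1534 CPM, and its KO libraries had 1326, 1361 and 1390 CPM. The KO values lay inside the WT range, so the groups overlapped. The log2 fold change was −0.12 (SE 0.0759, edgeR adjusted p = 0.160), which does not show that the levels were equal. The coefficient of variation was 11.5% in WT and 2.35% in KO, where the medians over 2187 genes of at least 100 CPM were 4.18% and 4.81%. WT replicate 1 was the low library, and it also had the lowest WT values of Emilin1 and Postn, the lowest total count and the highest WT mitochondrial share. However, it was not the lowest WT library for Tgfbi (6.90 CPM, against 6.70 in WT replicate 2) and was the highest for Npnt (0.767 CPM). Whether these traits are linked was not tested. Without WT replicate 1, Fn1 was called lower in KO (−0.24, edgeR adjusted p = 0.0025, in a fit that called 74.0% of genes). Leaving out the lowest WT value of a gene lowers its fold change by construction, so this call adds no support. In the other fits with 1 library left out Fn1 was not called (edgeR adjusted p = 0.13 to 0.38). It was also called lower with no filter on low counts (−0.14, edgeR adjusted p = 0.0363), in a fit that gave far smaller p-values (Postn, edgeR adjusted p = 6.5e-239). Fn1 was 65th of all genes by read level in WT and 67th in KO. Its locus (ENSMUSG00000026193) is on chromosome 1, minus strand, from 71585520 to 71653200, and 2.50% of its exonic sequence overlaps Apol7d on the opposite strand. The annotation gives Fn1 17 transcripts, 9 of them protein-coding, and the counts do not separate spliced forms such as those with the extra domains of cellular fibronectin.

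**Figure D3:**
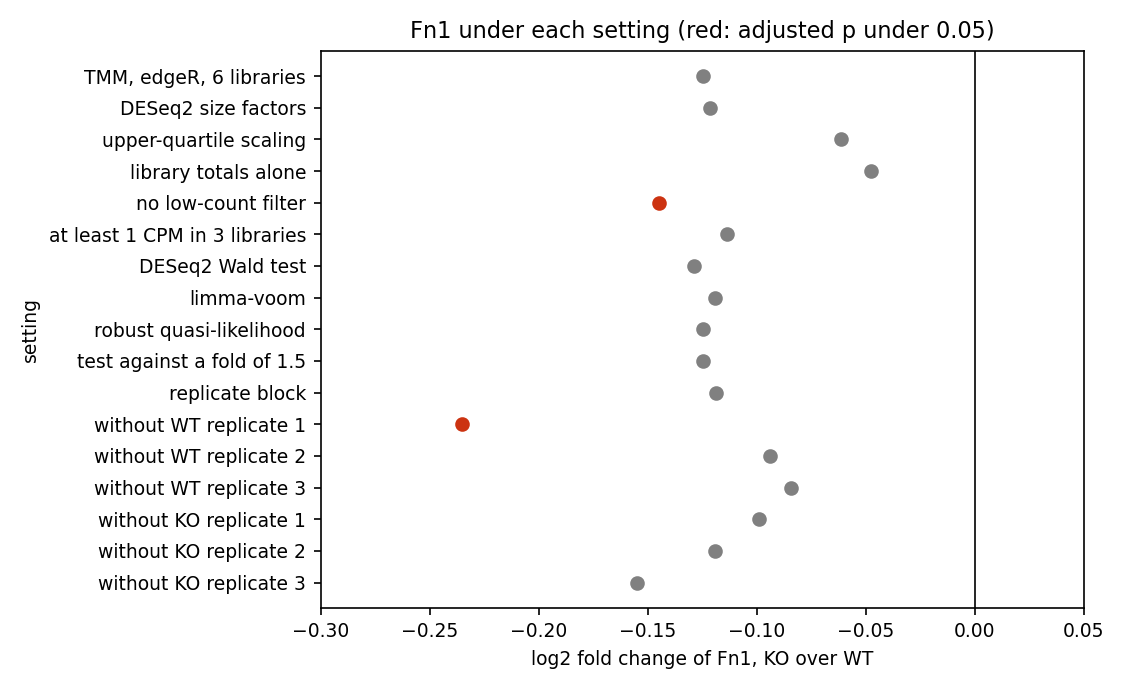
Log2 fold change of Fn1 (KO over WT) under each setting of the analysis, with settings that call it in red. All points lie left of 0, from −0.24 without WT replicate 1 to −0.05 with library totals alone, and only the setting without WT replicate 1 and the setting without a low-count filter call the gene.

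Npnt rested on few reads, with 17, 13 and 16 counts in WT and 45, 37 and 28 counts in KO. These correspond to 0.767, 0.490 and 0.649 CPM in WT and 1.65, 1.40 and 1.09 CPM in KO. The groups did not overlap, though the lowest KO value was close to the highest WT value. The log2 fold change was 1.05 (SE 0.266, edgeR adjusted p = 0.0045), a 2.07-fold increase. Npnt (ENSMUSG00000040998) lies on chromosome 3 at 132881745 to 132950291, minus strand.

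Vtn had 0 counts in all WT libraries and 6, 9 and 15 counts in the KO libraries. Set against a floor of 3 counts over the WT group, the observed Vtn level in KO was 9.22-fold higher, with a KO mean of 0.380 CPM. This ratio leaves out the counting error of the KO counts. Hepatocyte markers, named because the liver is the main source of vitronectin, summed to at most 0.113 CPM in any WT library and to 0 in KO. Mfap4 had 1, 0 and 2 counts in WT and 9, 12 and 10 counts in KO, a ratio of 9.53 with an exact 95% Clopper-Pearson interval of 2.97 to 48.7 that covers counting error only. Of its exonic sequence 4.63% overlaps Mapk7 on the opposite strand. KO values of Vtn and Mfap4 were above all their WT values, and both were called higher when no filter was used (edgeR adjusted p = 7.5e-07 and 0.00018) and by DESeq2 (adjusted p = 0.00039 and 0.0107). These calls rest on 0 and 3 WT counts and 30 and 31 KO counts and are not taken as support. The fit without the filter also gave far smaller p-values at nearly the same fold change (Postn, edgeR adjusted p = 6.5e-239, against 2.9e-10 with the filter). Without the filter 44.5% of 28293 genes were called, and with DESeq2 52.0% of 21163. Edil3 had 2 counts, both in WT replicate 1, and 0 elsewhere. A count of 0 in KO allows an Edil3 level of up to 0.0377 CPM (3 counts over the KO group), and the WT mean was 0.0301 CPM, so a difference between the groups was not detectable at this depth. Vtn (ENSMUSG00000017344) and Mfap4 (ENSMUSG00000042436) are on chromosome 11 at 78499091 to 78502324 and 61485431 to 61488900, and Edil3 (ENSMUSG00000034488) is on chromosome 13 at 88821472 to 89323223, all on the plus strand.

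Levels of different genes were compared per kilobase of exonic length. In WT, Fn1 stood at 120.2 ± 13.9 CPM per kb (mean ± SD, n = 3), followed by Emilin1 at 23.4 ± 2.01, Postn at 12.3 ± 0.264 and Tgfbi at 1.91 ± 0.177 CPM per kb. In KO, Fn1 stood at 116 ± 2.73, Emilin1 at 80.7 ± 5.74, Postn at 78.2 ± 5.12 and Tgfbi at 65.0 ± 2.01 CPM per kb. The order was therefore the same in both groups, but the gap between Fn1 and the next genes was much narrower in KO. In KO the Emilin1 and Postn libraries overlapped (74.5 to 85.8 and 72.8 to 83.0 CPM per kb), and with the length of the longest transcript Postn (130.2) came before Emilin1 (103). Neighbours in the WT order from Fn1 to Npnt did not overlap. The 4 remaining genes were below 1 CPM per kb in both groups, with Npnt the highest of them at 0.126 ± 0.0277 in WT and 0.274 ± 0.0561 in KO. Mfap4 at 0.203 ± 0.0319 and Vtn at 0.187 ± 0.0909 CPM per kb overlapped in KO.

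Reads of the 8 genes together came to 1440, 1691 and 1775 CPM in WT and 2655, 2704 and 2696 CPM in KO. Every KO library was above every WT library, and the mean was 1.64 times higher in KO (exact two-sided permutation p = 0.1, the smallest that 3 against 3 libraries allow). Without Fn1 the sum was 230.4 ± 12.1 CPM in WT and 1326 ± 18.6 CPM in KO (n = 3), a ratio of 5.76 with the same p from the exact permutation test. Fn1 supplied 85.9% of these reads in WT and 50.6% in KO. The share of Postn went from 6.54% to 25.3%, that of Emilin1 from 7.07% to 14.8% and that of Tgfbi from 0.439% to 9.13%. These are shares of reads and depend on transcript length. With TMM-scaled CPM the summed level of the 8 genes was 1.54 times higher in KO.

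**Figure D4:**
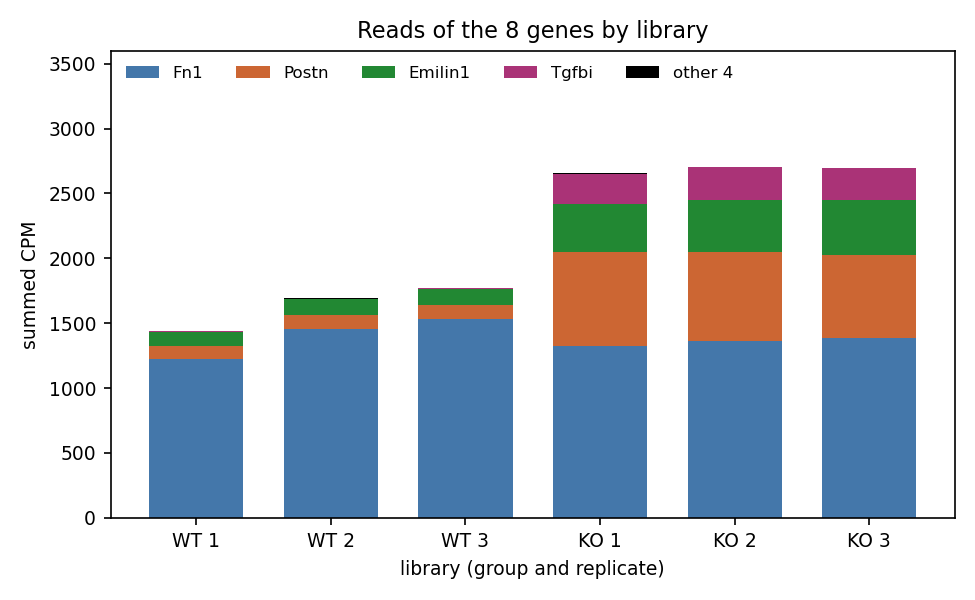
Summed CPM of the 8 genes in each library, stacked by gene, with the 4 low genes combined in black. The Fn1 segment measures 1223 to 1534 CPM across the libraries, and the KO columns are taller through Postn, Emilin1 and Tgfbi.

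Integrin subunit genes, which include the receptors of these ligands and also laminin and leukocyte receptors, were called in both directions, which also held over all tested genes (37.7% higher and 37.5% lower). Of 26 listed, 18 were tested, of which 12 were called higher and 5 lower, while Itga5 was not called. The list's median log2 fold change was 0.85. Itga8, whose product with the beta-1 chain is the receptor of nephronectin, had 5 counts over the WT libraries and 351 over the KO libraries, or 0.0687 ± 0.0255 and 4.40 ± 0.472 CPM (n = 3). It is 1 of the 12 called higher, but its WT mean was below the filter's CPM level, so it passed only through the KO libraries and its call adds no support. Itgb3, a partner of the alpha-V chain in vitronectin and fibronectin binding, rose by 2.66 and Itgb7 by 2.39 on the log2 scale, and Itga3, a subunit of laminin receptors, fell by 1.84. The chains of the classical fibronectin receptor did not follow this, as Itgb1, the commonest beta chain, fell by 0.45 on the log2 scale and Itga5 had 153 ± 14.6 CPM in WT and 168 ± 10.4 CPM in KO (log2 fold change 0.05, edgeR adjusted p = 0.55). Itgav, the alpha-V chain, fell by 0.41 on the log2 scale, and Itgb5, which pairs with it, rose by 0.85. Itga4 and Itga9, subunits of receptors reported for Emilin1, did not pass the filter and were at or below 0.0625 CPM in both groups. Itgb1, Itga5, Itgav, Itgb5, Itga4 and Itga9 were named for their role after their values were seen.

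Among genes that link integrins to the cytoskeleton or take part in fibronectin assembly, 9 of 16 tested genes were called higher and 3 lower and the remaining 4 were not. Of the 3 lower, 1 had a KO mean of 0.352 CPM, below the filter's CPM level, against 1.05 CPM in WT. The 75.0% called is close to the 75.1% of all tested genes, and the list's median was 0.35 on the log2 scale. Tgm2, a transglutaminase that cross-links matrix proteins and binds fibronectin, had 4.67 ± 0.483 CPM in WT and 82.3 ± 3.95 CPM in KO (n = 3; log2 fold change 4.06, edgeR adjusted p = 1.9e-10). Tns1, a tensin of fibrillar adhesions, rose by 1.44, the proteoglycan Sdc2 by 1.34 and the adaptor Parva by 0.70 on the log2 scale. The talin gene Tln1 (−0.02), the vinculin gene Vcl (0.01), the focal adhesion kinase gene Ptk2 (−0.09) and Ilk (−0.67) were not called; these 4 were named after their values were seen.

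Among 35 other adhesive matrix glycoproteins 20 were tested, of which 14 were called higher and 2 lower, leaving 4 without a call, so 80.0% were called against 75.1% of all tested genes. Of the 14, 3 had a WT mean below the filter's CPM level and passed only through KO. The list's median was 1.05 on the log2 scale. Dpt, encoding dermatopontin, which binds fibronectin and collagen fibrils, went from 6.81 ± 0.531 to 195 ± 6.18 CPM (n = 3). Aebp1, a collagen-binding protein, rose by 1.85 on the log2 scale. The members that fell were the RGD protein osteopontin, Spp1 (−2.28), and Tinagl1, a basement membrane-associated integrin ligand (−3.58). Emilin2, the paralog of Emilin1, rose by 1.33 on the log2 scale and was named after its value was seen.

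In the list of TGF-beta ligands, receptors and Smads, which holds known upstream regulators of Tgfbi, Postn and Fn1, 9 of 13 tested genes were called higher and 3 lower, with no call for Smad2, which is named only to complete the count. The 92.3% called stands beside 75.1% of all tested genes. The median here was 0.43 on the log2 scale. The ligand genes Tgfb2 (1.83) and Tgfb1 (1.17) and the signal transducer Smad3 (0.76) rose, and the Smad inhibitor gene Skil (−1.36) fell. The other called genes did not all follow this, as the receptor gene Tgfbr1 (−0.39) fell and the inhibitor genes Smad6 (1.01) and Ski (0.35) rose. The inhibitor gene Smad7 (−0.90) fell, and Tgfb3 (0.60), Tgfbr2 (0.53), Tgfbr3 (0.43) and Smad4 (0.33) rose. These other called genes were named after their values were seen. Of the elastic fibre partners of Emilin1 and Mfap4, 6 of 7 tested were called higher and 1 lower, with a median of 0.52. The 100% called stands beside 75.1% of all tested genes. Of the 6 higher, 3 (Fbln5, Efemp2 and Mfap2) are also counted among the adhesive glycoproteins. The lower gene, Loxl1 (−0.22), overlapped between groups and lost its call with upper-quartile scaling, with library totals alone and in 4 of the 6 fits with 1 library left out. Lox, the enzyme that cross-links elastin and collagen, rose by 2.44, Ltbp4 by 1.19, the fibrillin gene Fbn1 by 0.72 and Fbln5 by 0.51 on the log2 scale, whereas Eln, elastin itself, had no counts in WT and 1 count in KO. Efemp2, Mfap2, Loxl1 and Eln were named after their values were seen.

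**Figure D5:**
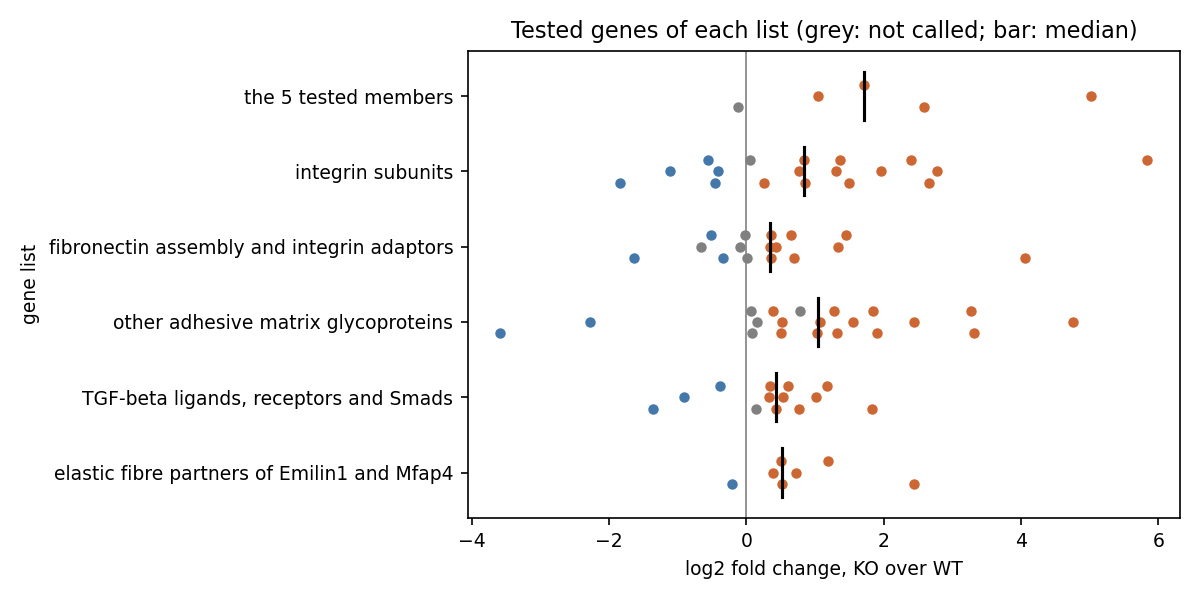
Log2 fold change (KO over WT) of every tested gene of each list, 1 point a gene, with called increases in orange, called decreases in blue, genes not called in grey and a bar at the list's median. Each list spreads to both sides of 0, and the medians of the lists shown all lie above it.

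The nearest tested genes on either side of the 8 genes were 16 in number; 9 were called higher and 7 lower, where 75.1% of all tested genes were called, and their median was 0.49 on the log2 scale. The number called was 9 against a fold of 1.5 and 12 to 16 under the other alternatives, and 3 of the 9 higher neighbours (Apol7d, Fbxl21 and Rnf112) had a WT mean below the filter's CPM level. Around Tgfbi both neighbours rose, Smad5 at a distance of 63448 bases by 0.87 and Fbxl21 by 1.72 on the log2 scale. Around Postn both neighbours fell, the gene model Gm5641 (−1.12) and Ufm1 (−0.18). Khk, a fructokinase gene that begins 154 bases beyond the end of Emilin1 on the same strand, rose by 2.25, and Ost4 on the other side rose by 0.56. Beside Fn1, Atic fell by 1.34 and Apol7d, which overlaps Fn1, rose by 1.38 from 0.292 ± 0.136 CPM in WT to 0.827 ± 0.223 CPM in KO (n = 3). If the counting ignored strand, reads in the shared exons of such pairs could not be assigned to either gene.

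RefSeq promoter windows (GRCm38.p6, 250 bases before to 50 after each start) were listed for 5 of the 8 genes, with 7 starts in all. The upstream parts of the Postn and Tgfbi windows are shown because these are the 2 genes with the largest increases among the 5 tested. They end at the base before the first GENCODE transcript, at chr3:54360857-54361108 and chr13:56609336-56609522, both on the plus strand, 5′ to 3′. Capitals mark TATAAA in Postn and the reverse complement of CCGCCC, the GC box, in Tgfbi.
Postn: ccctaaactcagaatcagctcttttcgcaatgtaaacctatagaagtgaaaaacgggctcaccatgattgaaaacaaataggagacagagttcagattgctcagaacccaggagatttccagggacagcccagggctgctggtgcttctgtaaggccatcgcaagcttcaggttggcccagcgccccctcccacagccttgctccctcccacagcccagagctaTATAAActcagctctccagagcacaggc
Tgfbi: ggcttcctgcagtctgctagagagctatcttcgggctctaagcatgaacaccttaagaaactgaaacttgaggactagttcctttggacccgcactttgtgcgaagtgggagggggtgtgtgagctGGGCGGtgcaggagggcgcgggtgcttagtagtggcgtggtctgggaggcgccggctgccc
The Postn TATAAA begins 26 bases before the RefSeq start, and 13.6% of 32851 promoter windows of the same length hold TATAAA on either strand. Tgfbi had CCGCCC at 124 bases before and 16 bases after its RefSeq start, a motif held by 35.7% of windows. That start lies beyond the end of the printed stretch, which holds only the first of these matches. The observed over expected CpG ratio was 0.731 in the Tgfbi window and 0.242 in the Postn window, at percentiles 73.4 and 34.7 of all windows. Searched on both strands, TGANTCA (AP-1, in 7.81% of windows), TGTGGT (RUNX, 16.8%) and GTCTAGAC (a SMAD palindrome, 0.213%) were in none of the 7 windows, GGAATG (TEAD, 14.7%) was in the Vtn window alone, and CCAAT (37.4%) was in the Emilin1 window and that of the other Postn start. The Postn and Tgfbi windows shown shared no motif of those searched.

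By distance between the 6 centred log2 CPM values, the genes most like Emilin1, the called gene of the highest level per exonic length, were Col5a1 (distance 0.0805), Aamdc (0.0919) and Dmpk (0.0944). Col5a1, a fibrillar collagen chain, had 185 CPM in WT and 637 CPM in KO. The genes nearest to Tgfbi were Clec14a (0.234), Gpihbp1 (0.235) and Tgm5 (0.282). Those 3 had 0 counts in WT and at most 2.37 CPM in KO, so their likeness to Tgfbi depends on the prior count of 2 added before the logarithm.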

How the data were processed

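The authors deposited raw counts per Ensembl gene, 1 file per library, with STAR 2.7.10b and the build GRCm38 named in the submitters' processing notes. Not given in the sources used here: the counting program, its annotation, its strand setting and its handling of reads with several matches. The whole-number counts were used unchanged. GENCODE M21 gave symbols, positions and exonic lengths for 28230 of 28293 identifiers. CPM is a count scaled to a library total of 1000000. KO and WT were compared in edgeR 4.0.16 (R 4.3.3) with TMM scaling, filterByExpr (at least 0.383 CPM in 3 libraries) and the quasi-likelihood test. DESeq2 1.42.0 and limma 3.58.1 were used in alternatives. Levels are mean ± SD over 3 libraries. On simulated counts (15001 genes tested, 50 changed at each size), edgeR recovered 22% of 1.25-fold, 74% of 1.5-fold, 90% of 2-fold and 98% of 4-fold changes. Of the simulated calls, 5.96% were false. Few genes changed in the simulation, whereas 75.1% of tested genes were called in the data, so these shares may not hold for the data. Named are the 8 genes, Tmpo, up to 4 genes of each of 5 lists by smallest p, the nearest tested neighbours and the 3 nearest patterns; others are marked. Members, lists and rule were chosen with earlier results of these data known, and 1 further list is not reported here. Protein sequences were not used here, so the planned comparison of proteins was replaced by a codon search chosen after the data were seen. Figures were drawn with matplotlib 3.10.9.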

Additional observations from a re-analysis of the deposited data

How the results depend on the processing

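Under the 16 alternatives, Tgfbi, Postn, Emilin1 and Npnt kept their direction and their calls, with log2 fold changes of 4.97 to 5.09, 2.56 to 2.67, 1.62 to 1.78 and 0.89 to 1.18. The weakest of these calls was Npnt against a fold of 1.5 (edgeR adjusted p = 0.0478). Fn1 was below 0 throughout and was called with no low-count filter (−0.14) and without WT replicate 1, the library with its lowest WT value. Its values ranged from −0.24 to −0.084 when 1 library was left out. With no filter 7 of the 8 genes were called, beside 44.5% of 28293 genes, in a fit whose p-values were far smaller than with the filter. The 7 were the 5 genes tested with the filter, Vtn (6.24) and Mfap4 (3.01), and DESeq2 gave 5.58 and 3.16 for the last 2. Mfap4 passed the filter in 4 of the 6 fits with 1 library left out and was called in each (2.45 to 3.86). Its WT values were at most 0.0811 CPM, below the filter's CPM level, so it passed only through KO libraries. These Mfap4 calls therefore add no support. Against a fold of 1.5, the calls over all genes went from 11330 to 5621, the neighbours from 16 to 9, the lower integrin subunits from 5 to 2, the adaptors from 9 higher and 3 lower to 4 and 1, the higher TGF-beta genes from 9 to 4, and the elastic fibre genes from 6 higher and 1 lower to 3 and 0. That test asks for a larger change by construction. The higher elastic fibre genes numbered 5 with no filter, with DESeq2 and with the replicate number as a block. They numbered 5 to 6 when 1 library was left out. The lower elastic fibre gene, Loxl1 (−0.22), lost its call with upper-quartile scaling or library totals alone (count 0), and the count ranged from 0 to 1 when 1 library was left out, with 0 without WT replicate 2, WT replicate 3, KO replicate 1 or KO replicate 2. The cause of the other changes was not tested. The deviations of equally numbered WT and KO libraries correlated at 0.147, −0.115 and 0.159, and not every library correlated best with its own number, so the numbers were not taken to pair samples. With the replicate number as a block 11697 genes were called instead of 11330, and no call of the 5 tested genes changed. The summed level of the 8 genes was 1050 CPM higher in KO, and 952 to 1120 CPM higher when 1 library was left out. With TMM-scaled CPM the difference was smaller, at 905 CPM. Depth limits Vtn, Mfap4, Edil3 and Npnt, which rest on 2 to 156 counts in all.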
